A study of Mus musculus with 4 samples.

Results

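The MHC class II presentation genes are a set of 10 mouse genes chosen by symbol: the classical chains H2-Aa, H2-Ab1 and H2-Eb1, the invariant chain Cd74, the peptide-exchange genes H2-DMa, H2-DMb1 and H2-DMb2, their inhibitors H2-Oa and H2-Ob, and the transactivator Ciita. Of these 10 genes, 8 had a probe set carrying 1 gene symbol, out of 19946 genes named in this way. H2-DMb1 and H2-DMb2 share 1 probe set, so neither had a value of its own. A floor of 6 on the log2 intensity of the highest array left 7 members among 12527 genes, and H2-Oa was the member that did not pass it. Expression was measured on 4 Affymetrix Mouse Gene 1.0 ST arrays, 1 per genotype, with RNA from epithelial cells that EDTA had released from the colons of C57BL/6 mice. All 4 genotypes were sex-matched mice of 6 to 8 weeks that had received azoxymethane (10 mg/kg), a carcinogen, and, beginning 5 days later, 3.5% dextran sulfate sodium for 5 days, and whose cells were taken on day 12. The array called DKO here came from Bmi1ΔIEC Mel18ΔIEC mice, which lack both genes in the intestinal epithelium, and the arrays called Bmi1_KO and Mel18_KO came from Bmi1ΔIEC and Mel18ΔIEC mice. The WT array came from wild-type mice given the same treatment. Bmi1 and Mel18 (gene symbol Pcgf2) encode related subunits of Polycomb repressive complex 1. The sources used here give neither the Cre driver nor how many mice went into an array, and no sorting of the released cells is described.

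MHC class II molecules are pairs of an alpha and a beta chain that present peptides from endosomes to CD4+ T cells. The invariant chain fills the groove of a new class II molecule and takes it to the endosome, where DM exchanges the remaining fragment of the invariant chain for peptide and DO holds DM back. Dendritic cells, macrophages and B cells carry class II constantly, while intestinal epithelium acquires more of it under interferon-gamma. Transcription depends on Ciita, which does not bind DNA but docks on factors bound to the S, X and Y boxes of the promoters.

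The promoter windows printed below are from chain genes whose window held a match to a form marked here. The H2-DMa windows, which held none, and that of H2-DMb2, which held matches, are not printed. Whether the matches go with the differences between arrays was not tested. RefSeq windows of 300 bases (250 before and 50 after the annotated start, GRCm38.p6) were matched by symbol for 7 of the 10 members, H2-DMa with 2 windows. Each line reads 5′ to 3′ on the strand of the gene. Capitals mark matches to a short X box form (AAC and TGATG with 3 bases of any kind between them), to the palindromic X2 form (TGACGTCA) and to a Y box (TGATTGG), searched on both strands.
H2-Aa (chr17:34287774-34288073, minus strand): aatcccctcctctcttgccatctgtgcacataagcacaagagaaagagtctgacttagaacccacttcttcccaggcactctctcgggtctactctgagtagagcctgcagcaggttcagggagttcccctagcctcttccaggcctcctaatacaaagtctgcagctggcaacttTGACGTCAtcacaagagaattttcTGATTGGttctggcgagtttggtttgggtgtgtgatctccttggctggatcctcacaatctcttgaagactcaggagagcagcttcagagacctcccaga
H2-Eb1 (chr17:34305617-34305916, plus strand): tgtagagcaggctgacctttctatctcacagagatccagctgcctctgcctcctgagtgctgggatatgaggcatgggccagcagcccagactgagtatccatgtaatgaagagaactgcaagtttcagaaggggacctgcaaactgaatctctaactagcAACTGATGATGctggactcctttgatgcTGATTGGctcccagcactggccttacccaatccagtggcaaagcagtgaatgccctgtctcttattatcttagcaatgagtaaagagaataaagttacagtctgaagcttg
H2-DMb1 (chr17:34152941-34153240, plus strand): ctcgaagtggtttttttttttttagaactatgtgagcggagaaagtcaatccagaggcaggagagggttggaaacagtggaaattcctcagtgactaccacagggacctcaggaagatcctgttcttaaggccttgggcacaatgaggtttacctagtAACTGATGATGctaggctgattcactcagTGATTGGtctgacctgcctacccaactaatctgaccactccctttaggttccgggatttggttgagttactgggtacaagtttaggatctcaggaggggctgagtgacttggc
H2-Ob (chr17:34238655-34238954, plus strand): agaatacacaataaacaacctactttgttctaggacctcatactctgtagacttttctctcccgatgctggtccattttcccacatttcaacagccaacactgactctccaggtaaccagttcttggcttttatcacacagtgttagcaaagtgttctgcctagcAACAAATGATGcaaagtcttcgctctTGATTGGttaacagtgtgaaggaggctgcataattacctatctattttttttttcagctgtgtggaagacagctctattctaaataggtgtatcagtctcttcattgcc
H2-Oa (chr17:34092129-34092428, plus strand): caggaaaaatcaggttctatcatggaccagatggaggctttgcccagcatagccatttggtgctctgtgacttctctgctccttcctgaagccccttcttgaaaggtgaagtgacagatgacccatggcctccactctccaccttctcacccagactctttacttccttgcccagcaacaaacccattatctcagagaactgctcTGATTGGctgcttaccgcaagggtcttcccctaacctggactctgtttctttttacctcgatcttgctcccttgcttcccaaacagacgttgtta
In H2-Eb1, H2-DMb1 and H2-Ob the short X form stood 17, 18 and 15 bases before the Y box, and in H2-Aa the X2 form stood 16 bases before it. H2-DMb2 held the short X form and the Y box 18 bases apart as well, so 5 members had an X form followed within 30 bases by a Y box. Over all 32851 windows this arrangement was found in 12 (0.0365%). The short X form alone was found in 0.615% of windows, the X2 form in 1.79% and the Y box in 7.82%. The longer X form, which covers part of the short form where both match, was found in 0.195% of windows and in 2 members, H2-DMb1 and H2-Ob. The H2-Oa window held the Y box with neither X form, and the H2-DMa windows held none of these letters. The short X form and the spacing were chosen after the windows had been read. A match is a description of letters and not a bound site.

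**Figure D1:**
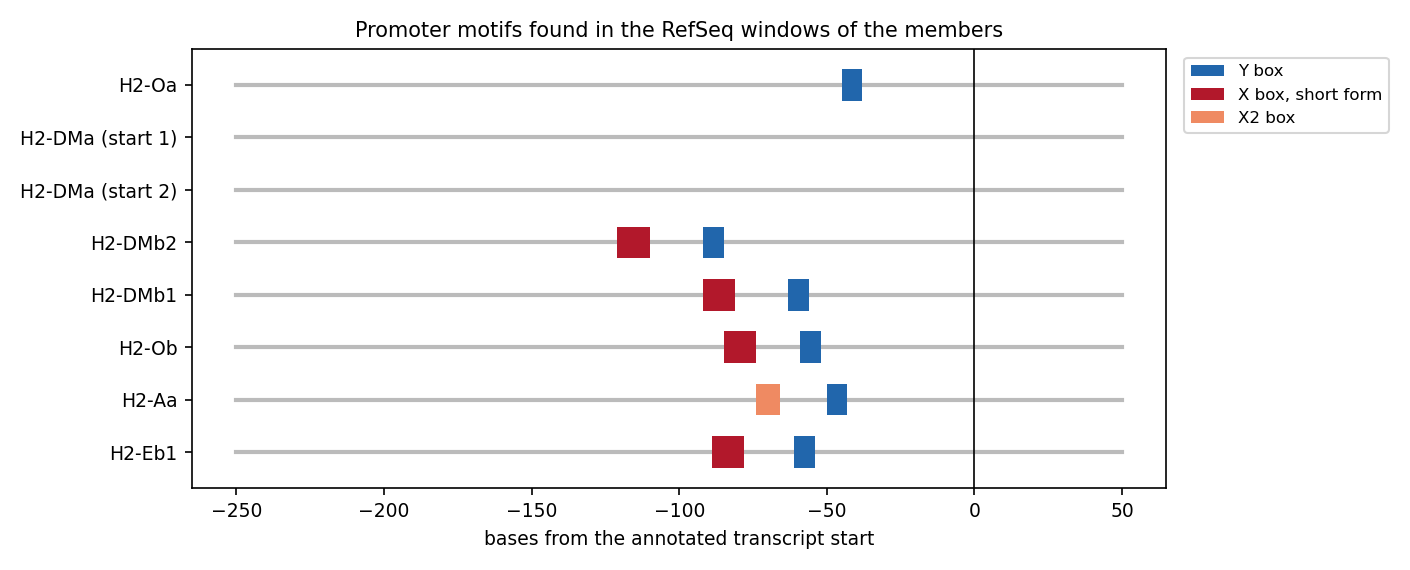
Positions of the X forms (red and orange) and the Y box (blue) in the 8 RefSeq promoter windows of the members, in bases from the annotated transcript start (vertical line). In 5 windows an X form precedes a Y box by 15 to 18 bases, the H2-Oa window has the Y box alone, and both H2-DMa windows are empty.

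With 1 array per genotype, no difference between arrays has a replicate check, and values are given on the log2 intensity scale with no test unless one is named. Levels of different probe sets are not compared. Median intensity over 35556 probe sets lay between 67.04 and 72.96 on the 4 arrays. Bmi1 read 7.64 (DKO), 7.43 (Bmi1_KO), 7.0 (Mel18_KO) and 7.25 (WT), and Pcgf2 read 6.81, 6.72, 6.84 and 6.96 on the same arrays, so neither gene was clearly lower where its deletion is labelled. The deleted exons are not given, and a probe set for the whole transcript also reads RNA outside them, so this does not check the labels. DKO stood apart, with a correlation across genes of 0.878 to 0.906 with the other arrays, which correlated at 0.978 to 0.982 with each other. The WT array carried seminal vesicle transcripts: a list of 10 such genes, written after these values were known, had a summed intensity of 173 (DKO), 387 (Bmi1_KO), 175 (Mel18_KO) and 14632 (WT). Its part in the differences from WT was not tested, and the mean of the single deletion arrays therefore serves as a further baseline for DKO.

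The chains that form class II molecules were all highest on DKO and lowest on WT. H2-Aa (probe set 10450154), the I-A alpha chain, read 11.06 (DKO), 10.05 (Bmi1_KO), 9.97 (Mel18_KO) and 9.85 (WT). It was 2.31-fold higher on DKO than on WT, a log2 difference of 1.21, and the single deletions lay within 0.20 of WT. H2-Ab1 (probe set 10444291), the I-A beta chain, read 11.27 (DKO), 10.25 (Bmi1_KO), 10.47 (Mel18_KO) and 9.95 (WT), so it was 2.51-fold higher on DKO than on WT (1.32). H2-Eb1 (probe set 10444298), the I-E beta chain, read 10.48 (DKO), 9.38 (Bmi1_KO), 9.47 (Mel18_KO) and 9.001 (WT). Its 2.78-fold difference between DKO and WT (1.48) was the largest of the 7 members. For each of the 3 chains the single deletion arrays lay nearer to WT than to DKO. C57BL/6 mice carry a defective H2-Ea gene, so their I-E beta chain has no alpha partner, and the H2-Ea probe set read between 3.96 and 4.06 on the 4 arrays, below the floor. H2-Eb2, a further beta chain gene of the region, read 6.12 (DKO), 5.79 (Bmi1_KO), 6.16 (Mel18_KO) and 5.47 (WT).

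The invariant chain was likewise highest on DKO and lowest on WT, with a smaller difference. Cd74 (probe set 10456005) read 11.19 (DKO), 10.60 (Bmi1_KO), 10.80 (Mel18_KO) and 10.32 (WT). It was 1.83-fold higher on DKO than on WT (0.87), and Mel18_KO was above WT by 0.48. Against the mean of the single deletions DKO was 1.41-fold higher (0.49), which did not reach 1.5-fold.

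The DM and DO genes stood at different distances from WT on the single deletions. H2-DMa (probe set 10444229), the alpha chain of the peptide exchanger, read 8.91 (DKO), 8.34 (Bmi1_KO), 8.04 (Mel18_KO) and 7.62 (WT), so DKO was 2.45-fold above WT (1.29), Bmi1_KO was above it by 0.72 and Mel18_KO by 0.42. The probe set shared by H2-DMb1 and H2-DMb2 (10444236), which encode its beta chain, read 7.56 (DKO), 7.36 (Bmi1_KO), 7.43 (Mel18_KO) and 6.70 (WT). On this probe set the 3 deletion arrays lay within 0.20 of each other and all stood above WT, by 0.85 for DKO, 0.66 for Bmi1_KO and 0.72 for Mel18_KO.

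H2-Ob (probe set 10444284), the beta chain of the DM inhibitor and a gene used mainly by B cells, read 6.77 (DKO), 6.50 (Bmi1_KO), 6.695 (Mel18_KO) and 5.575 (WT). Its distance from WT was nearly as large on Mel18_KO (1.12) and Bmi1_KO (0.93) as on DKO (1.19), and the WT value was below the floor, so these differences are rough. The alpha chain gene H2-Oa (probe set 10444223) read 5.615 (DKO), 5.93 (Bmi1_KO), 5.96 (Mel18_KO) and 5.52 (WT), below the floor on every array. The B cell surface gene Ms4a1 read 6.04 (DKO), 5.565 (Bmi1_KO), 5.89 (Mel18_KO) and 5.03 (WT), and Bank1, an adaptor of the B cell receptor, read 6.57, 5.97, 6.28 and 5.72 on the same arrays. Both had the array order of H2-Ob, at levels near the floor, and Ms4a1 passed it on DKO alone. Pou2af1, at 6.54 (DKO), 6.07 (Bmi1_KO), 6.225 (Mel18_KO) and 5.82 (WT), had this order too. Some other B cell genes did not have it. The receptor subunits Cd79a, 5.275 (DKO), 5.62 (Bmi1_KO), 6.27 (Mel18_KO) and 4.92 (WT), and Cd79b, 7.35 (DKO), 7.49 (Bmi1_KO), 7.72 (Mel18_KO) and 6.85 (WT), were lower on DKO than on both single deletions. Cd37 was lowest on Mel18_KO.

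**Figure D2:**
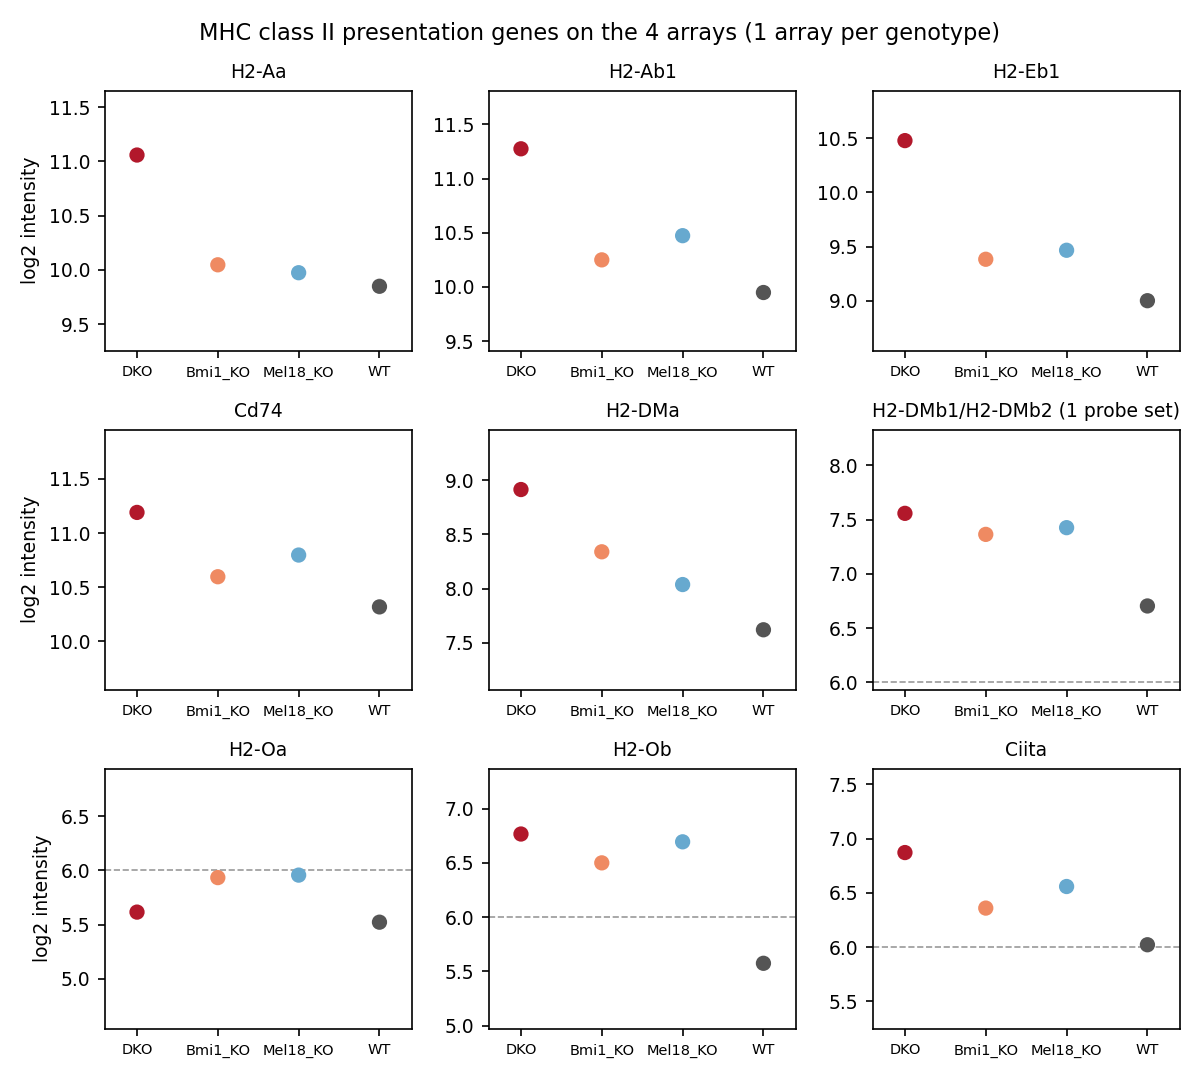
Log2 intensity (vertical axis, the same span of 2.4 in each panel) of the 8 members with a probe set of their own and of the probe set shared by H2-DMb1 and H2-DMb2. Each point is 1 array (DKO, Bmi1_KO, Mel18_KO, WT), the dashed line is the floor of 6, and WT is the lowest point in every panel while DKO is the highest in every panel but that of H2-Oa.

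The transactivator itself was dim. Ciita (probe set 10433507) read 6.87 (DKO), 6.36 (Bmi1_KO), 6.56 (Mel18_KO) and 6.02 (WT), so WT stood at the floor. DKO was 1.80-fold higher than WT (0.85), Mel18_KO was higher by 0.54 and Bmi1_KO by 0.34. The factors on which Ciita docks had smaller differences between DKO and WT. In a list of 11 enhanceosome and coactivator genes the median difference of DKO from WT was 0.15. In it 1 gene was at least 1.5-fold higher (14.3% of all genes) and 1 lower (20.1% of all genes). These were the acetyltransferase Kat2b, 8.25 on DKO and 7.415 on WT (0.83), and the Y box subunit Nfyc, 9.37 on DKO and 9.98 on WT (-0.62). Nfyb, also a Y box subunit, gave 0.41 and the remodelling ATPase Smarca4 gave -0.47. The X box factors Rfx5, Rfxank and Rfxap gave 0.15, -0.18 and -0.39. For DKO against the mean of the single deletions the list median was 0.13. On that baseline 2 genes were at least 1.5-fold higher (14.0% of all genes) and 0 lower (18.8%). Kat2b (0.98), Nfyb (0.78) and Nfya (0.47) there stood above Ciita (0.41), while Nfyc (-0.51), Smarca4 (-0.44) and Rfxap (-0.33) were lower on DKO. In the same list the median was -0.14 for Bmi1_KO and 0.00 for Mel18_KO against WT, and the Mel18_KO sign turned with cyclic loess scaling (-0.016).

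All 7 members past the floor were at least 1.5-fold higher on DKO than on WT, and 5 of them at least 2-fold. Among all genes past the floor, 14.3% reached 1.5-fold above WT, 20.1% reached 1.5-fold below it, and 7.33% reached 2-fold above it. The member median was 1.21, with a range of 0.85 to 1.48, against a median of -0.05 over all genes, whose differences had a scaled median absolute deviation of 0.57. Of the 7 members, 6 passed the floor on all 4 arrays and H2-Ob passed it on the 3 deletion arrays. DKO was the highest array for 7 of 7 members, against 35.3% of all genes, and it was highest with WT lowest for 7 of 7, against 10.1%. The WT array was the lowest for 8 of the 8 members with a probe set of their own, H2-Oa included, and for 16.7% of the genes past the floor.

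Each single deletion array also stood above WT for every member past the floor, by less. On Bmi1_KO the differences ran from 0.20 to 0.93 with a median of 0.34, and 2 of 7 members, H2-DMa and H2-Ob, were at least 1.5-fold higher, as were 2.02% of all genes. On Mel18_KO they ran from 0.12 to 1.12 with a median of 0.48, and H2-Ob was the 1 member at least 1.5-fold higher, as were 1.19% of all genes. The median over all genes was -0.02 for Bmi1_KO and 0.00 for Mel18_KO, with scaled median absolute deviations of 0.19 and 0.22. The 3 differences share the WT array. Directly against each other, Bmi1_KO was below Mel18_KO for 5 of 7 members, with a median of -0.19 and a range of -0.22 to 0.30. H2-DMa was higher on Bmi1_KO (0.30), and H2-Aa (0.07) turned to -0.048 with median centring. In this comparison 0 members were 1.5-fold apart, where 3.26% of all genes were higher and 1.24% lower.

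Against the mean of Bmi1_KO and Mel18_KO, which leaves the WT array out, the members divided. H2-Eb1 (1.05), H2-Aa (1.05), H2-Ab1 (0.91) and H2-DMa (0.72) were at least 1.5-fold higher on DKO, whereas Cd74 (0.49), Ciita (0.41) and H2-Ob (0.17) were not. Beside these 4 of 7, the share of all genes was 14.0% above and 18.8% below by that much. The member median was 0.725 against -0.07 over all genes. H2-Oa, below the floor, gave -0.33. The probe set of H2-DMb1 and H2-DMb2 gave 0.16, against 0.725 for H2-DMa, the gene of its partner chain.

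**Figure D3:**
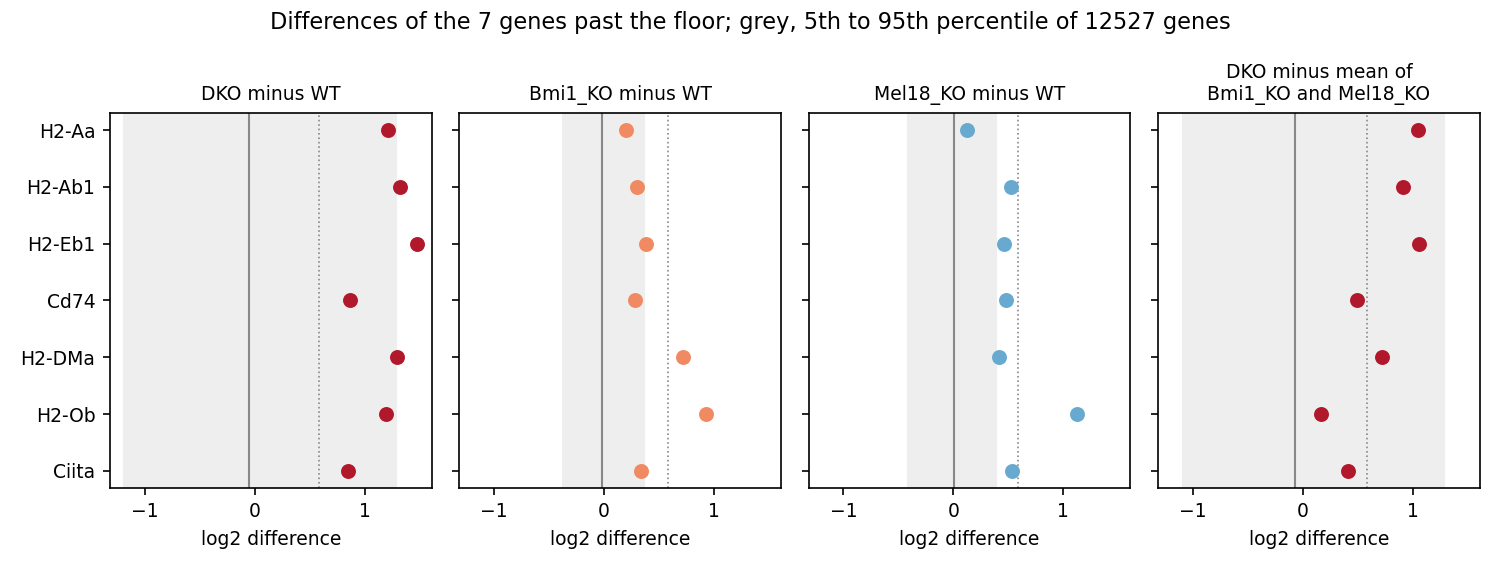
Log2 differences (horizontal axis) of the 7 members past the floor for DKO, Bmi1_KO and Mel18_KO against WT and for DKO against the mean of the single deletions. The grey band runs from the 5th to the 95th percentile of all genes past the floor, the solid line their median, and the dotted line marks 1.5-fold. All 7 members lie right of the dotted line against WT on DKO, and Cd74, H2-Ob and Ciita lie left of it when WT is left out.

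The departure from additivity, in which both single deletion values are taken from the sum of DKO and WT, was also taken for each member. The chains lay above additivity, H2-Aa by 0.89, H2-Eb1 by 0.63 and H2-Ab1 by 0.50, while H2-DMa (0.16), Cd74 (0.115) and Ciita (-0.02) lay near it and H2-Ob lay below it (-0.85). H2-Aa and H2-Eb1 were thus at least 1.5-fold above additivity, as were 15.4% of all genes, and H2-Ob was at least 1.5-fold below it, as were 19.1%. The noise of all 4 arrays enters this value, and over all genes its scaled median absolute deviation was 0.58. The values of H2-Ab1, H2-DMa, Cd74 and Ciita were smaller than this spread, and no division of the members was tested.

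An additive model of both deletions, fitted to the 4 arrays with limma and 1 residual degree of freedom, called 0 of 12527 genes (0.0%) for loss of Bmi1 and 0 (0.0%) for loss of Mel18 after Benjamini-Hochberg adjustment. At an unadjusted p under 0.05 it counted 324 and 138 of the 12527 genes. Both are fewer than the share of 0.05 that this cut would pass if no gene differed. The average effect of Bmi1 loss on the members ran from 0.325 (Ciita) to 0.80 (H2-DMa), and that of Mel18 loss from 0.50 (H2-DMa) to 0.78 (H2-Eb1). In limma the adjusted p of each member was 0.849 for Bmi1 and 0.952 for Mel18. The smallest unadjusted limma p among the members was 0.0238 for H2-DMa with loss of Bmi1 and 0.0385 for H2-Ab1 with loss of Mel18. In this model any departure from additivity enters the residual.

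The members were also used to look for genes with the same array profile. Each profile was centred on its own mean over the 4 arrays, and the mean member profile was 0.64 (DKO), -0.09 (Bmi1_KO), -0.01 (Mel18_KO) and -0.54 (WT). The nearest of the other genes past the floor was Irf1, an interferon-induced transcription factor, at a root mean square distance of 0.026 over the 4 arrays. Irf1 read 11.30 (DKO), 10.505 (Bmi1_KO), 10.61 (Mel18_KO) and 10.09 (WT). The next were Crebrf (0.042), the inflammasome sensor Nlrp1b (0.048), the membrane-shaping ATPase Ehd2 (0.057) and the small GTPase Rhou (0.061). The members themselves lay between 0.106 (H2-Ab1) and 0.27 (H2-Ob) from their mean. With 4 arrays such nearness is a description.

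Genes of the signal that induces Ciita and of its other targets were compared next. Ifng, which encodes interferon-gamma, read 8.74 (DKO), 5.53 (Bmi1_KO), 5.66 (Mel18_KO) and 5.66 (WT), so it passed the floor on DKO alone. In a list of 15 measured genes of the path from interferon-gamma to Ciita, 8 stood at least 1.5-fold above WT on DKO and 0 below (median 0.66). Of all genes, 14.3% stood that far above WT on DKO and 20.1% below. Besides Ifng (3.08) the largest were the Ciita repressor Prdm1 (1.56), Irf1 (1.22) and the cytokine subunit Il12a (1.07). Of 17 genes induced by interferon-gamma 16 were higher and 0 lower (median 1.96), led by the GTPases Gbp4 (3.29), Gbp8 (2.46) and Gbp5 (2.44) and the chemokine Cxcl9 (2.30). Against WT, the medians of the induced genes were 0.00 on Bmi1_KO (-0.075 with median centring and 0.009 with cyclic loess) and -0.19 on Mel18_KO, while the class II members lay above WT on both. Of the 17 induced genes, 2 were at least 1.5-fold above WT and 2 below it on Bmi1_KO, and 2 above and 1 below on Mel18_KO. The shares of all genes were 2.02% above and 1.53% below on Bmi1_KO, and 1.19% and 2.35% on Mel18_KO. The 2 above were on both arrays the GTPase Iigp1 (1.22 on Bmi1_KO and 1.12 on Mel18_KO) and the tryptophan-degrading enzyme Ido1 (1.00 and 0.75). These distances were larger than those of most members. For the path genes the medians against WT were 0.08 on Bmi1_KO and 0.12 on Mel18_KO.

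Lists of other presentation genes had smaller median differences between DKO and WT than the members, a comparison with no test. Of 18 class I presentation genes 3 were at least 1.5-fold higher on DKO than on WT and 0 lower (median 0.26). Of all genes, 14.3% were higher and 20.1% lower by that much. The classical heavy chain genes H2-K1 and H2-D1 had no probe set of 1 symbol, so the list does not cover them. The 3 higher genes were the nonclassical H2-T24 (0.78), the peptide transporter subunit Tap2 (0.70) and Nlrc5 (0.63), the class I counterpart of Ciita. H2-Q4 gave 0.53. Nlrc5 read 9.63 (DKO), 9.25 (Bmi1_KO), 8.82 (Mel18_KO) and 8.996 (WT), and thus did not have WT as its lowest array. The class I medians were -0.01 on Bmi1_KO and 0.01 on Mel18_KO. Of 16 genes of endosomal processing 6 were higher and 0 lower (median 0.33), among them the cathepsin Ctsh (0.99), the endopeptidase Lgmn (0.81), the cystatin Cst7 (1.22, past the floor on DKO alone) and Marchf1, a ligase that removes class II from the surface (0.68). Their medians were -0.01 on Bmi1_KO and 0.05 on Mel18_KO. Of 14 costimulatory and checkpoint ligands 6 were higher and 0 lower (median 0.40), led by Cd80 (2.26), Cd274 (2.17), Btnl2 (2.13) and Cd86 (1.91), and the medians were 0.11 on Bmi1_KO and -0.20 on Mel18_KO.

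Markers of the cell types that the isolate could hold were compared by list, and the lists differed in how many of their genes were higher on DKO. Over all genes past the floor, 14.3% were at least 1.5-fold higher and 20.1% lower than WT on DKO. The shares were 2.02% and 1.53% on Bmi1_KO, and 1.19% and 2.35% on Mel18_KO. The epithelial marker Epcam read 12.38 (DKO), 12.05 (Bmi1_KO), 11.99 (Mel18_KO) and 12.14 (WT). The 20 pan-epithelial genes had a median difference of 0.18 between DKO and WT. Of them 3 were at least 1.5-fold higher, near the share of all genes (among them Cldn4, 1.21, and Phgr1, 1.06). The 2 lower were Cdx1 (-1.36) and Esrp1 (-0.77). The leukocyte gene Ptprc read 9.96 (DKO), 7.94 (Bmi1_KO), 7.225 (Mel18_KO) and 7.61 (WT). Of 15 pan-leukocyte genes 15 were at least 1.5-fold higher on DKO than on WT (median 1.885), 1 of which, Cd48, passed the floor on DKO alone, and their summed intensity was 17355 (DKO), 7660 (Bmi1_KO), 3029 (Mel18_KO) and 4519 (WT). On Mel18_KO this list lay below WT, with a median of -0.52, 5 of 15 lower and 0 higher, while the members lay above WT there by a median of 0.48.

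Macrophage and monocyte genes showed the same contrast. Of 20 past the floor 18 were higher on DKO than on WT and 0 lower (median 2.05), with Ms4a6c (2.48), Cybb (2.45), Msr1 (2.365) and Fcgr1 (2.28) furthest and Adgre1 and Csf1r at 2.235 and 1.91. These 20 include 3 that passed the floor through DKO alone, Adgre1, Ms4a7 and Aif1, and so had to be higher there. Summed intensity, for this and every other list, covers all its genes with a probe set, also those under the floor. For macrophage and monocyte genes it was 21546 (DKO), 7939 (Bmi1_KO), 4221 (Mel18_KO) and 6039 (WT). The median of the 20 past the floor was 0.19 on Bmi1_KO and -0.35 on Mel18_KO. Of 15 neutrophil genes 13 were higher on DKO (median 2.24, Hcar2 3.00, Ngp 2.93, Clec4d 2.735, Il1r2 2.67). The neutrophil median was 0.98 on Bmi1_KO and -1.12 on Mel18_KO, and the summed intensity was 34086 (DKO), 21130 (Bmi1_KO), 9307 (Mel18_KO) and 13586 (WT).

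Dendritic and B cell genes were mostly dim. Of 17 dendritic cell genes with a probe set 9 passed the floor, and Flt3, Xcr1, Clec9a, Clec10a, Siglech, Irf4, Snx22 and Clec4a4 did not pass it on any array. Among the 9, which include 3 that passed on DKO alone, 5 were higher on DKO and 0 lower (median 0.61), with Itgax, an integrin shared with macrophages, at 1.595 and the chemokine receptor Ccr7 at 1.16. Their medians were 0.12 on Bmi1_KO and 0.01 on Mel18_KO, the last turning to -0.008 with cyclic loess. Summed dendritic cell intensity was 2069 (DKO), 1604 (Bmi1_KO), 1304 (Mel18_KO) and 1374 (WT). Of 17 B and plasma cell genes 10 passed the floor, and Pax5, Blk, Cd22, Fcrla, Cr2, Fcer2a and Tnfrsf17 did not. Of the 10, 5 were higher on DKO and 0 lower (median 0.61), with the plasma cell gene Jchain at 2.91. Ms4a1 and Mzb1 are among the 10 through DKO alone. Of the 10, 4 were higher on Mel18_KO and 2 on Bmi1_KO (medians 0.48 and 0.25). Cd79a, counted on both, is among the 10 through Mel18_KO alone and so had to be above WT there. Summed B and plasma cell intensity was 2034 (DKO), 1273 (Bmi1_KO), 1378 (Mel18_KO) and 1066 (WT). The brightest genes in this sum on DKO were Jchain and Cd37. Jchain read 9.15 (DKO), 5.90 (Bmi1_KO), 7.085 (Mel18_KO) and 6.24 (WT), and Cd37 read 8.59, 7.91, 7.28 and 7.35 on the same arrays. The order of the sum therefore need not hold for the other genes of the list. The class II members themselves summed to 9128 (DKO), 5049 (Bmi1_KO), 5436 (Mel18_KO) and 4055 (WT). The same order of the 4 arrays was found in the sums of pan-epithelial genes, 75378 (DKO), 70838 (Bmi1_KO), 72127 (Mel18_KO) and 67616 (WT), and of the path from interferon-gamma to Ciita, 21313 (DKO), 15179 (Bmi1_KO), 16966 (Mel18_KO) and 14695 (WT), so it is not particular to B cell genes.

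T cell genes, a list not limited to CD4+ T cells, were higher in 3 of 9 cases on DKO (median 0.30), against 14.3% of all genes. Cd4 itself read 5.96 (DKO), 6.04 (Bmi1_KO), 5.75 (Mel18_KO) and 5.66 (WT), near the floor and highest on Bmi1_KO. Cd3e read 7.70 (DKO), 7.37 (Bmi1_KO), 7.12 (Mel18_KO) and 7.06 (WT), and summed T cell intensity was 1139 (DKO), 955 (Bmi1_KO), 873 (Mel18_KO) and 838 (WT). Endothelial genes were higher on DKO in 12 of 13 cases, 4 of the 13 (Kdr, Emcn, Esam and Robo4) having passed the floor on DKO alone (median 0.95, summed intensity 2009 (DKO), 1107 (Bmi1_KO), 818 (Mel18_KO) and 920 (WT)). Fibroblast genes were higher in 9 of 11 cases and lower in 1 (median 0.86, summed intensity 9234 (DKO), 5425 (Bmi1_KO), 2627 (Mel18_KO) and 3519 (WT)). The RNA came from a mixed isolate, in which a greater number of class II cells and more class II RNA per cell cannot be told apart, and the part of each cell type in the class II differences was not tested.

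**Figure D4:**
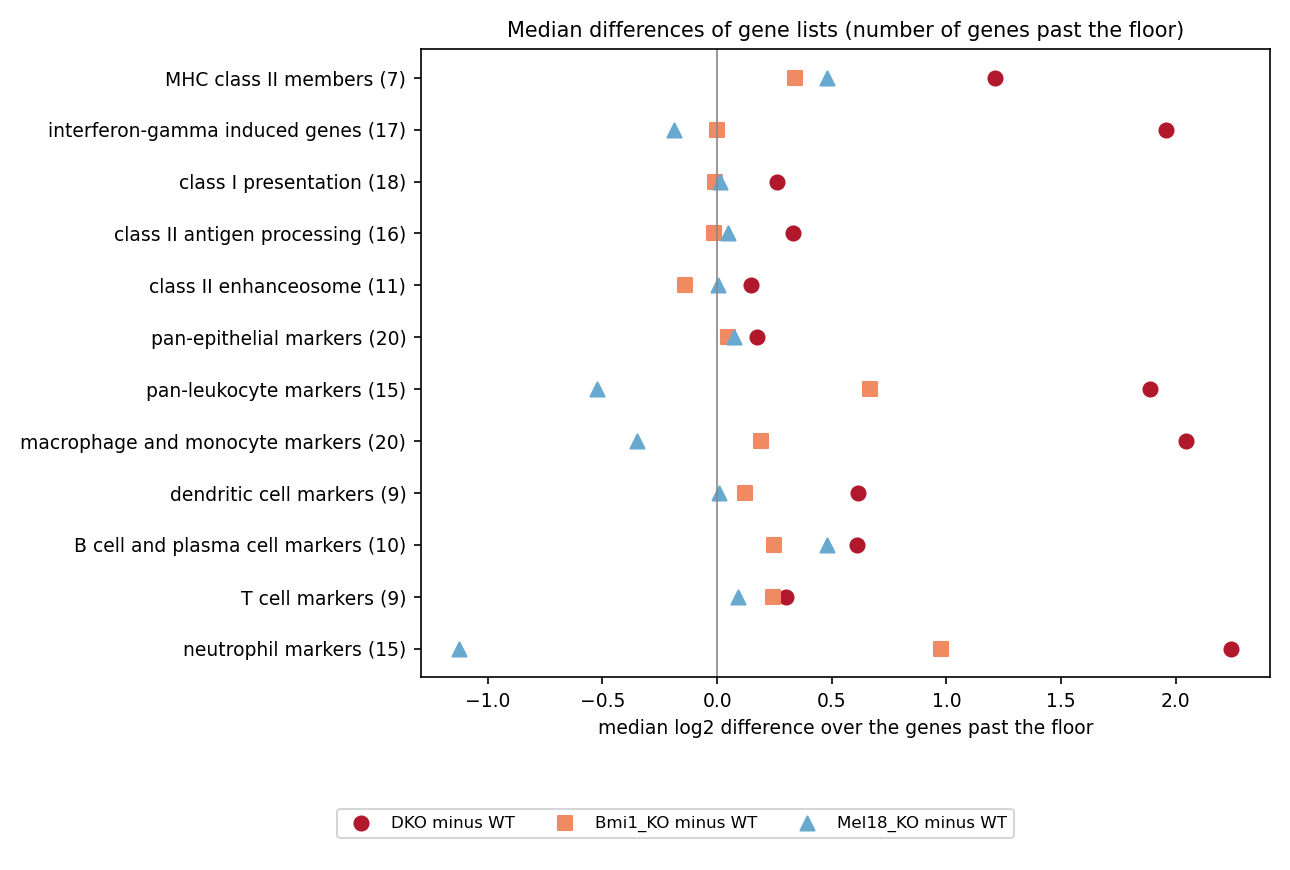
Median log2 difference from WT (horizontal axis) of the class II members and of gene lists, for DKO (circles), Bmi1_KO (squares) and Mel18_KO (triangles), with the number of genes past the floor in brackets. On Mel18_KO the class II members stand at 0.48 and B and plasma cell genes also at 0.48, whereas pan-leukocyte, macrophage and neutrophil genes stand at -0.52, -0.35 and -1.12. Among the B and plasma cell genes, Cd79a passed the floor on Mel18_KO alone.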

How the data were processed

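The authors deposited 1 linear intensity per probe set and array, which the submitters' processing notes attribute to RMA in Affymetrix Expression Console, with no version. Because RMA brings all arrays to a common distribution, it would take out a shift common to most genes. Per the labels' protocols, cells were released with EDTA (5 mM, 20 min), and 200 ng of Trizol-extracted RNA was labelled. Intensities carry no count, so the number of arrays limits the precision.

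Arrays were grouped by the labelled genotype. Of 35556 probe sets 21797 carried 1 gene symbol in the platform annotation, 1613 carried several and were not named, and 12146 had no gene listed. Gene identifiers of 21698 were found in RefSeq and 0 symbols changed. The brightest probe set was used for each of 999 genes with more than 1. Values were taken to log2, with a floor of 6 on the highest array, and a difference of 1.5-fold (0.585) was the threshold for every count. The additive model was fitted in limma 3.58.1, under R 4.3.3 (eBayes, Benjamini-Hochberg over all genes, threshold 0.05). It was also run on simulated data with equal noise for all genes and no departure from additivity. That run checked the estimated size of planted changes and set no requirement on the genes called. Other steps used Python 3.11.15, numpy 2.4.6, pandas 2.3.3 and matplotlib 3.10.9. Promoter windows and names came from RefSeq (GRCm38.p6).

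The text names all 10 members, up to 4 genes with the largest DKO differences in each list described, a set of defining markers, and the 5 genes of nearest profile. Ms4a1, Bank1, Pou2af1, Cd79a, Cd79b, Cd4, Iigp1, Ido1 and Nfya were picked for comparison with values in view. So were the genes past the floor on DKO alone and the X box factors. The members, the 16 gene lists and the tests were chosen with earlier results of these data known, and the seminal vesicle list was written from them. Alternatives were no floor, a floor of 8, median centring, cyclic loess, log2 of the intensity plus 32, a 2-fold threshold, averaging all probe sets of a gene and a trend in eBayes.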

Additional observations from a re-analysis of the deposited data

Results flagged for a closer look

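The probe set that H2-DMb1 and H2-DMb2 share lies outside the comparisons of single genes, and on it DKO stood above WT by 0.854.

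For 10 gene lists the median lay on opposite sides of 0 for a deletion made in the presence and in the absence of the other gene. With 1 array per genotype this difference was not tested, and several of the values are close to 0. For loss of Mel18, DKO minus Bmi1_KO against Mel18_KO minus WT was 1.959 against -0.187 for interferon-gamma induced genes, 0.658 against -0.201 for costimulatory and checkpoint ligands, and 1.803 against -0.351 for macrophage and monocyte genes. It was 1.033 against -1.123 for neutrophil genes, 1.157 against -0.524 for pan-leukocyte genes and 0.73 against -0.185 for endothelial genes. For loss of Bmi1, DKO minus Mel18_KO against Bmi1_KO minus WT was 0.091 against -0.139 for enhanceosome genes, 0.229 against -0.014 for class II processing genes, 0.15 against -0.01 for class I genes and -0.037 against 0.326 for H2-Eb2, the 1 measured class II gene outside the members.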

How the results depend on the processing

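Of the counts and medians of the members recomputed under each alternative, 5 counts moved by more than 1.5 times. None of the medians moved by more than 0.407, the spread estimated for 2 arrays from the contrasts over all genes, which true effects enlarge. That spread is larger than the medians of Bmi1_KO minus WT, Bmi1_KO minus Mel18_KO and the departure from additivity, so for these it is no check. They ran from 0.263 to 0.36, from -0.315 to -0.083 and from 0.111 to 0.499. With a floor of 8, which leaves 5 members, the members at least 1.5-fold higher than WT were 1 on Bmi1_KO (2.39% of all genes) and 0 on Mel18_KO (1.34%), since H2-Ob no longer passed. With a 2-fold threshold they were 0 on Bmi1_KO (0.551% of all genes), and 2 on DKO against the mean of the single deletions (7.33%). With the probe set of H2-DMb1 and H2-DMb2 counted, an alternative chosen after seeing the data, they were 2 on Mel18_KO (1.19%), 3 on Bmi1_KO (2.02%) and 8 of 8 on DKO (14.3%). The median of DKO minus WT ran from 1.134 (median centring) to 1.388 (cyclic loess), and that of DKO minus the single deletions from 0.609 to 0.912. In the 5 differences, the direction of a member turned under an alternative only for H2-Aa between Bmi1_KO and Mel18_KO. Median centring moved the median of all genes for Bmi1_KO minus Mel18_KO from -0.031 to -0.153. The limma count was 0 for both deletions under every alternative, with 116 to 469 genes at an unadjusted p under 0.05. These were each time a share below 0.05 of the genes tested. No paired analysis was possible because each genotype has 1 array. Signal limits Ciita, H2-Ob and H2-Oa, which lie near the floor.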
